A study of Mus musculus with 2 samples.

Results

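The stretch of mouse chromosome 11 that holds the genes Psmd3, Csf3, Thra, Nr1d1 and Rara carried 5 regions in which 5-hydroxymethylcytosine (5-hmC) was lower in imiquimod-treated epidermis than in Vaseline-treated epidermis. The members were chosen by name: a region belonged to the locus when the authors' gene list for it held any of these 5 gene symbols, and a region shared by several genes was counted once. This gave 5 of the 364 regions in the deposited table, of which 4 named 2 of the 5 genes and 1, in Rara, named a single one. The authors had selected all 364 regions for a large difference between the same pair of libraries, so the differences below describe the selected regions and are not tested.

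5-hmC arises when TET enzymes oxidise 5-methylcytosine, and it is common in the bodies of genes. It was measured by hMeDIP-seq, which sequences the sonicated DNA fragments that a 5-hmC antibody captures. There was 1 library from epidermis of C57BL/6J mice that received imiquimod (3.125 mg of the active compound daily on back and ear skin), and 1 library from epidermis of C57BL/6J mice that received Vaseline as the vehicle, in both cases for 6 days at an age of 6 weeks. Both libraries are marked WT in the table. Repeated use of imiquimod, an agonist of a Toll-like receptor, gives mouse skin a psoriasis-like inflammation. The sources used here do not give the number of mice behind each library, there are no replicates, and no RNA was measured that could check the tissue label against marker genes. Total library depth is unknown, and the depth behind a value is the estimated number of tags in its region.

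The genes of the locus encode a proteasome subunit, a cytokine and nuclear receptors. Psmd3 encodes a lid subunit of the regulatory particle of the proteasome, the machine that degrades ubiquitin-tagged proteins. Csf3 encodes granulocyte colony-stimulating factor, the cytokine that drives neutrophil production and that epithelial cells make under interleukin-17. Thra encodes a thyroid hormone receptor and Rara a retinoic acid receptor, both of which bind DNA together with retinoid X receptors. Nr1d1 encodes REV-ERB alpha, a haem-binding repressor of the circadian clock, and is transcribed from the opposite strand across the end of Thra.

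The regions fell into 3 places along 278 kb (277686 bp from the first base to the last). The first place was a tight group of 3 regions within 3790 bp, at the 3' end of Psmd3 and in the space before Csf3. The second was a single region over the shared end of Thra and Nr1d1, 72.0 kb further on. The third was a single region inside Rara, another 200.1 kb away. The authors numbered their merged regions along each chromosome, and the 5 listed ones are 5 of 79 numbers in this span. The span is bounded by the listed regions and was chosen because they cluster there, so nothing is read from this count. The group at Psmd3 took 3 of 4 successive numbers. Between that group and Nr1d1 lay 23 numbered regions that are not listed, and between Nr1d1 and Rara 50.

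**Figure D1:**
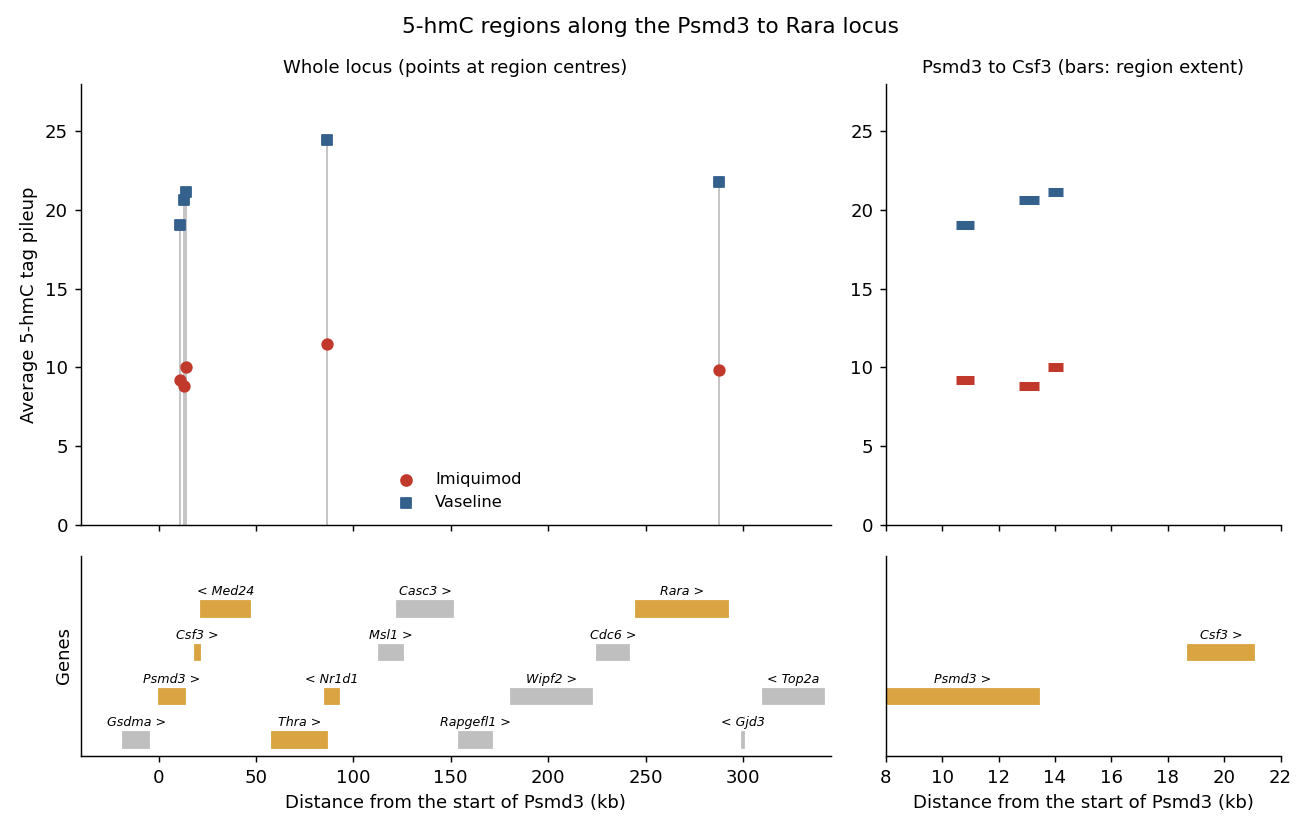
Average 5-hmC tag pileup of each region (vertical axis) against distance from the start of Psmd3 in kb (horizontal axis), for the imiquimod library (circles, or red bars on the right) and the Vaseline library (squares, or blue bars on the right). The lower panels show protein-coding genes with their direction, in yellow where a listed region was assigned to them and in grey where none was; all 5 imiquimod values lie between 8.82 and 11.5 and all 5 Vaseline values between 19.1 and 24.4.

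Coding exons lie inside 4 of the 5 regions. Sequences of most of these exons are shown because cytosine followed by guanine (CpG) is where most methylation and hydroxymethylation of mouse DNA occurs, and each CpG is in capitals. They were read from GENCODE M21 transcripts (GRCm38, the assembly that mm10 names), 5' to 3' on the strand of the gene, and hold no untranslated sequence. The first pair is from the Psmd3 group, the next is from the region at the end of Nr1d1, and the last pair is from the Rara region. Left out are Psmd3 exons 8 and 11, the pieces with the lowest CpG density.
Psmd3 exon 7 (chr11:98693383-98693497, plus strand): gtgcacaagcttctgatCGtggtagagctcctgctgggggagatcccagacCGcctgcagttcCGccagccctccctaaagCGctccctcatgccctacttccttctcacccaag
Psmd3 exon 12, coding part (chr11:98695523-98695597, plus strand): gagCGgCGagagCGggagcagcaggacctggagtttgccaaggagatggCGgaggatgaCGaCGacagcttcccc
Nr1d1 exon 7 (chr11:98769049-98769259, minus strand): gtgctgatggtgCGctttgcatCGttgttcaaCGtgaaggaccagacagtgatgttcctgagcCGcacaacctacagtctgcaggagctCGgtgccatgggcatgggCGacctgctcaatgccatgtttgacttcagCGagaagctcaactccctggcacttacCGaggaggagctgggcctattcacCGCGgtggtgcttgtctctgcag
Rara, upstream exon (chr11:98970157-98970317, plus strand): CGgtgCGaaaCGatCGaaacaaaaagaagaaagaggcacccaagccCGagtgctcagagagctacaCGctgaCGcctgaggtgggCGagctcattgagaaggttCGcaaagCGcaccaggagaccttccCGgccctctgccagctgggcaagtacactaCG
Rara, downstream exon (chr11:98970493-98970669, plus strand): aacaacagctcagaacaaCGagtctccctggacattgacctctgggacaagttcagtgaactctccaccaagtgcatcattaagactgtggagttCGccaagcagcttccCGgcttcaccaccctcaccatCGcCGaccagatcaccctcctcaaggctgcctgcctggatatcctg

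CpG density differed several-fold among these exons. The upstream Rara exon held 12 CpG in 161 bp (7.45 per 100 bp) and the downstream one 5 in 177 bp (2.82 per 100 bp). Psmd3 exon 12 held 6 CpG in its 75 coding bases (8 per 100 bp), Nr1d1 exon 7 held 10 in 211 bp (4.74 per 100 bp) and Psmd3 exon 7 held 4 in 115 bp (3.48 per 100 bp). Across the genome, 3.45% of coding exons of at least 50 bp were denser than Psmd3 exon 12, 4.15% were denser than the upstream Rara exon and 14.4% were denser than Nr1d1 exon 7. The other pieces were nearer the middle or low: 29.3% of coding exons were denser than Psmd3 exon 7 and 40.9% than the downstream Rara exon. The 93 bp of Psmd3 exon 8 that lie inside the region, a part of that exon, and the 51 bp of exon 11 held 1 CpG each. Of coding exons, 79.5% were denser than the exon 8 part and 58.7% than exon 11. Over all 7 coding pieces of the locus there were 39 CpG in 883 bp, or 4.42 per 100 bp. The coding sequence in all 271 lower regions held 4.88 per 100 bp, that in the 93 higher regions 3.23 (from 4 pieces), and all coding exons of the annotation 2.90. No CpG island was assigned to any of the 5 regions, and 27 of the 271 lower regions (9.96%) had one. With only 5 regions in the locus, nothing is read from this.

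All 5 regions had an average tag pileup at least 2-fold lower in the imiquimod library, beside 270 of all 364 listed regions (74.2%). Since the authors selected regions on this difference, nothing is read from that count. The call rests on the scaling as deposited: with imiquimod values raised by 15%, 1 of the 5 regions stayed 2-fold lower, and with the pileups of all listed regions made to sum alike, 0 did. In tissue, fewer cells of a type that carries 5-hmC at a site and less 5-hmC per cell cannot be told apart, and neither can a lower local signal and a different scaling of the whole library. Estimated tags summed over the 3616 bp of the 5 regions to 158.9 in the imiquimod library (exact 95% Poisson interval 135.2 to 185.7) and 346.0 in the Vaseline library (310.5 to 384.4). The length-weighted average pileup was 9.84 in imiquimod and 21.4 in Vaseline epidermis. The sum was 2.18-fold lower in imiquimod (95% interval 1.80 to 2.64), a log2 ratio of imiquimod over Vaseline of -1.12. The median log2 ratio of the 5 regions was -1.09, against -1.13 for all 271 lower regions. All intervals cover counting error only and make no allowance for the selection of regions on this ratio.

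**Figure D2:**
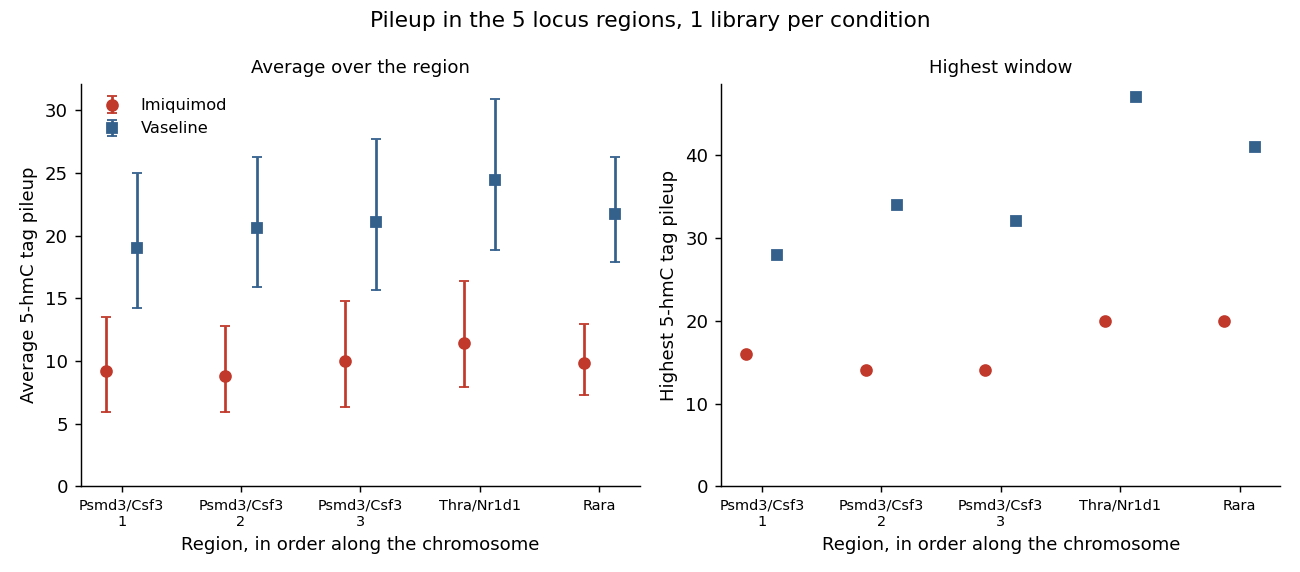
Average pileup over each region (left) and pileup in its highest window (right), for the imiquimod library (red circles) and the Vaseline library (blue squares), with regions in chromosomal order; each point is 1 library, and bars on the left are exact 95% Poisson intervals of the tag numbers on the pileup scale. In the imiquimod library the averages lie between 8.82 and 11.5 and the highest windows between 14 and 20, below the Vaseline averages of 19.1 to 24.4 and highest windows of 28 to 47.

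At Psmd3, the first region of the group (chromosome 11, 98693061 to 98693671, 610 bp) covers exon 7, most of exon 8 and intron, with coding sequence over 208 bp (34.1%). Psmd3 is on the plus strand and has 12 exons, and the authors' distance from the gene's start to the centre of the region was 10812 bp. Its average pileup was 9.21 in imiquimod and 19.1 in Vaseline epidermis, 2.07-fold lower (95% interval 1.27 to 3.50). Its highest window reached 16 in imiquimod and 28 in Vaseline epidermis, 1.75-fold lower. It was the single region of the locus whose highest window differed by less than 2-fold, and had the lowest Vaseline pileup of the 5 on either measure.

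The second region of the group (98695286 to 98695993, 707 bp) covers the end of Psmd3: exon 11, the coding part of exon 12 and the whole 3' untranslated region, and runs 14 bp past the gene. The untranslated region takes up 382 bp of it (54.0%). Its average pileup was 8.82 in imiquimod and 20.6 in Vaseline epidermis, 2.34-fold lower (1.47 to 3.76), which was the largest ratio in the locus. Its highest window reached 14 in imiquimod and 34 in Vaseline epidermis, a 2.43-fold difference. By average pileup this region stood 77th among the 271 lower regions in size of difference, so its ratio was well inside the range of the others.

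The third region of the group (98696309 to 98696851, 542 bp) lies between genes, 330 bp after the end of Psmd3 and 4411 bp before the body of Csf3. Its average pileup was 10 in imiquimod and 21.1 in Vaseline epidermis, 2.11-fold lower (1.28 to 3.61). Its highest window reached 14 in imiquimod and 32 in Vaseline epidermis. A gap of 316 bp separates it from the second region and no numbered region lies between them, while 1615 bp and 1 numbered region lie between the first and the second.

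No listed region overlapped Csf3 itself. The authors placed the 3 regions at 7947, 5674 and 4733 bp upstream of the Csf3 start, and none overlaps an exon of Csf3. A promoter was assigned by the authors to the second and the third region, whereas the first and those at Nr1d1 and Rara had none. Of the 271 lower regions, 68 (25.1%) had one. At 5674 and 4733 bp from the Csf3 start, the second and the third region do not lie at that start despite this assignment. The second and the third region were also assigned to Med24, a Mediator subunit gene on the minus strand beyond Csf3, whose near end lies 8597 and 7739 bp further along. Which gene, if any, these regions act on was not tested.

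The fourth region (98768866 to 98769483, 617 bp) lies where Thra and Nr1d1 run into each other on opposite strands. The gene bodies overlap by 1075 bp in the annotation, through 2 of the 9 annotated Thra transcripts. The region holds the last 140 bp of the Thra 3' untranslated exon, which are also Nr1d1 intron. Beyond the end of Thra it holds exon 7 of the 8 of Nr1d1 in full (211 bp, 34.2% of the region) and 266 bp of Nr1d1 intron. The authors gave its place as downstream of Thra, 27301 bp from the start, and inside Nr1d1, 6068 bp from the start. The whole region thus lies inside Nr1d1, and 477 bp of it lie beyond the end of Thra. hMeDIP signal carries no gene strand, so the signal over the 140 bp that both genes cover cannot be given to either of them.

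This region had the highest average pileup of the locus in both libraries. Its average was 11.5 in imiquimod and 24.4 in Vaseline epidermis, 2.13-fold lower (1.35 to 3.30). Its highest window reached 20 in imiquimod, level with that in Rara, and 47 in Vaseline epidermis, a 2.35-fold difference. Among the 271 lower regions its average was the 13th highest in imiquimod and the 16th highest in Vaseline epidermis, and its Vaseline highest window the 9th highest. The highest window stood 1.74 times above the region's average in imiquimod and 1.92 times in Vaseline epidermis, against medians over all lower regions of 1.66 in imiquimod and 1.63 in Vaseline.

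The fifth region (98969607 to 98970747, 1140 bp) lies inside Rara, 32481 bp from the start by the authors' measure, and covers the pair of coding exons printed above with intron around them. Both exons are in all 5 of the protein-coding Rara transcripts that were used. Coding sequence takes up 338 bp (29.6%) and intron 802 bp (70.4%). It was the 9th longest of the 271 lower regions and held the 6th most Vaseline tags. Its average pileup was 9.86 in imiquimod and 21.8 in Vaseline epidermis, from 50.2 estimated tags in imiquimod and 110.8 in Vaseline. The fold difference was 2.21 (1.58 to 3.17), and it was the single region of the 5 whose interval lay wholly above 1.5-fold lower, beside 66 of all 364 regions (18.1%). All 66 are among the 271 lower regions. Its highest window reached 20 in imiquimod and 41 in Vaseline epidermis, a 2.05-fold difference.

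**Figure D3:**
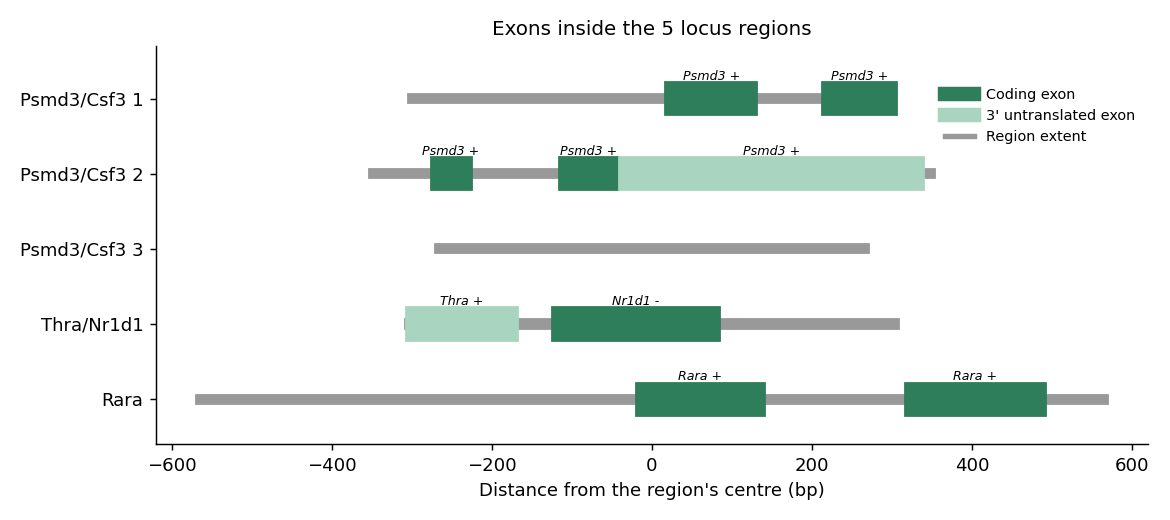
Exon content of the 5 regions, with distance from the centre of each region in bp on the horizontal axis and the regions in chromosomal order from top to bottom; grey lines show the extent of a region, dark green boxes coding exons and light green boxes 3' untranslated exons, each with its gene and strand. Coding exons fill 208, 126, 211 and 338 bp of 4 regions, and the region between Psmd3 and Csf3 holds 0 bp.

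Across the locus the regions differed little from each other in size of difference. The fold differences ran from 2.07 to 2.34, and the intervals overlapped in all 10 pairs of regions. The imiquimod averages spanned 8.82 to 11.5 and the Vaseline averages 19.1 to 24.4, with no overlap between the libraries. Regions were selected on a 2-fold difference, so nothing is read from this gap. Over all 271 lower regions the averages spanned 4.55 to 13.7 in imiquimod and 12.4 to 28.6 in Vaseline epidermis. By highest window, 4 of the 5 regions were at least 2-fold lower in imiquimod, beside 201 of all 364 (55.2%). An enriched interval had been called in 1 of the 5 regions, that in Rara, in the imiquimod library and in all 5 in the Vaseline library. Of the 271 lower regions, 16 (5.90%) had one called in the imiquimod library. Intervals called in Vaseline alone numbered 4 of 5 here and 253 of all 364 (69.5%). The 364 include 93 regions higher in imiquimod, so shares of them are not those of the lower regions alone. Interval calls and highest windows share their reads with the averages and are no separate evidence.

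Set beside all 271 lower regions, the locus lay near the middle in size of difference and above the middle in pileup. The imiquimod average exceeded the median of the lower regions (8.63) in 5 of 5 regions, and the Vaseline average exceeded it (19.3) in 4 of 5. Both were part of the values on which regions were selected, so the comparison is descriptive. The tag score rises with region length as well as pileup, so a shorter region needs a higher pileup to reach the same score. The median length was 617 bp in the locus and 688 bp in all lower regions. The locus regions of 707 and 1140 bp had Vaseline averages of 20.6 and 21.8. Those of 542, 610 and 617 bp had 21.1, 19.1 and 24.4. Whether length bears on the pileup of the locus was not tested. The Vaseline tags of the first and the third region, 51.9 and 51.1, lay just above the smallest tag score in the table, 49.5, as did many others: 109 of the 271 lower regions held fewer than 55. Coding exon was present in 4 of 5 locus regions, in 124 of 271 lower regions (45.8%) and in 4 of 93 higher regions (4.30%). By length, coding sequence took up 24.4% of the locus regions and 21.9% of all lower regions.

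**Figure D4:**
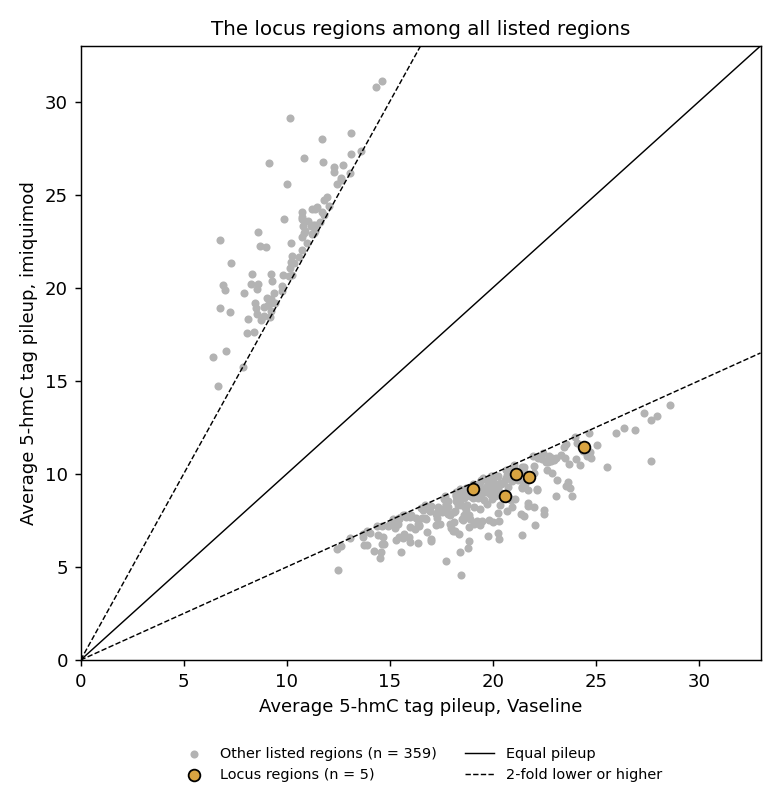
Average 5-hmC tag pileup in the imiquimod library (vertical axis) against that in the Vaseline library (horizontal axis) for all 364 listed regions, 1 point per region, with the 5 locus regions in yellow; the solid line marks equal pileup and the dashed lines a 2-fold difference. The empty wedge between the dashed lines is the authors' selection, and the locus regions, with imiquimod averages of 8.82 to 11.5, lie among the other lower regions just below the dashed line.

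The Psmd3 group was the tightest run of 3 listed regions in the table. The locus was chosen because its regions lie close together, so nothing is read from this rank. Other tight runs took 22.9 kb over 3110082I17Rik and Gpr146 on chromosome 5 and 29.9 kb over Rnf123, Mst1, Apeh and Bsn on chromosome 9, and both of these also held 3 lower regions. In windows as long as the locus, more listed regions were found at Zbtb16, which encodes the transcription factor PLZF, with 7 lower regions within 160.7 kb, and as many, 5, at a cluster on chromosome 19 within 92.2 kb. The Zbtb16 regions are 7 of 89 numbers in their span. Their median average pileup was 7.60 in imiquimod and 18.5 in Vaseline epidermis, below the locus medians of 9.86 in imiquimod and 21.1 in Vaseline epidermis, and 1 of the 7 held coding exon. The pileup needed to pass the authors' tag limit depends on region length, which was not matched in this comparison.

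Other genes along the stretch had no listed region assigned. From 20 kb before Psmd3 to 20 kb after Rara the annotation has 14 protein-coding genes. The 5 members and Med24 had a listed region assigned to them, in the case of Csf3 and Med24 without overlap, and the other 8 did not: Gsdma, a gasdermin gene of skin, Msl1, Casc3, Rapgefl1, Wipf2, Cdc6, Gjd3 and Top2a. Cdc6 and Top2a act in DNA replication and chromosome segregation. An unlisted region may have fallen short of the authors' tag or fold limit, so this does not show that 5-hmC was alike there. Outside the stretch, the nearest listed region on one side was in Plxdc1, 736.2 kb before (7.65 in imiquimod and 17.3 in Vaseline epidermis), and on the other side in Nmt1, 4.08 Mb after (9.50 in imiquimod and 20.5 in Vaseline epidermis).

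Other genes of the families to which the members belong were looked up on 4 lists, which were written with earlier results of these data known. For scale, 295 of 21924 protein-coding genes (1.35%) were assigned a lower region and 51 (0.233%) a higher one, and the lists were not matched to these on gene length. Each list holds at least 1 member of the locus, which had been chosen for having a region, so its share lies above this scale in part by construction. Of 26 circadian clock genes, 4 had a lower region (15.4%) and 0 a higher one: Nr1d1, the clock regulators Npas2 and Per1, and Usp2, a deubiquitinase gene under clock control. The Npas2 region, 34192 bp into the gene, had averages of 7.63 in imiquimod and 16.7 in Vaseline epidermis (2.19-fold lower, 1.37 to 3.75). The Per1 region, also assigned to Vamp2 and like the locus on chromosome 11, had 8.19 in imiquimod and 16.5 in Vaseline epidermis (2.02-fold lower, 1.24 to 3.44). The Usp2 region had 7.42 in imiquimod and 20 in Vaseline epidermis (2.70-fold lower, 1.59 to 4.76), a larger ratio than any region of the locus.

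On a list of 34 thyroid hormone and retinoid receptor genes, their partners and enzymes, Thra and Rara were among those with a lower region, and 0 had a higher one. Of 27 genes of granulocyte signalling, Csf3 and Socs1, a feedback inhibitor of cytokine receptors, had a lower region (7.41%), with none higher. The region assigned to Socs1, 5187 bp upstream of its start, was also assigned to Tnp2, Prm3, Prm2 and Prm1. Its highest window reached 12 in imiquimod and 34 in Vaseline epidermis. Csf3r, the receptor for the Csf3 product, was not listed. Of 40 proteasome genes, Psmd3 and Adrm1, a ubiquitin receptor of the proteasome, had one (5%), and none was higher. The Adrm1 region lies downstream of the gene and is shared with Lama5 (9.90 in imiquimod and 19.95 in Vaseline epidermis, 2.02-fold lower, 1.27 to 3.32).

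None of the 5 regions reached a gene start for which sequence was at hand. Sequence windows from 250 bp before to 50 bp after a RefSeq gene start were at hand for Nr1d1 and, for 4 starts, for Rara. The nearest locus region lay 5845 bp from the Nr1d1 window and 4687 to 31863 bp from those of Rara, so 5-hmC at these starts is not described by the listed regions.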

How the data were processed

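Genomic DNA from dispase-separated epidermis was immunoprecipitated with a 5-hmC antibody and sequenced, per the labels' protocols. The submitters' processing notes name CASAVA, MACS2 and mm10, with no version or role. The sources used here do not give the aligner, fragment extension, duplicate handling, input control or scaling between libraries. Enriched intervals of 4 libraries had been merged into numbered regions by the authors, per the file headers. The 6 columns of the other 2 libraries were not used. The columns named control and treated were assigned to Vaseline and imiquimod by these words, on which every direction rests.

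The deposited signal is an average tag pileup (coverage) per region and the pileup of the highest window. The authors' deposited tag score equals the larger average times region length divided by 224, and their deposited log2 ratio that of the averages, in all 364 regions (tolerance 1e-06). Tags per library were computed likewise. The second deposited sheet repeats the averages, and held all 11 pairs of region and gene of the locus with equal values. Interval calls and the numbers of CpG islands, promoters and genes were used as deposited by the authors.

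Fold intervals are Clopper-Pearson intervals of the imiquimod share of rounded tags at 95%, tested on simulated counts. The simulated counts were not selected for a 2-fold difference, so coverage in regions selected that way was not tested. These intervals cover counting error only, since each condition has 1 library. They and the Poisson intervals treat the estimated tags as unscaled, independent counts. This could not be checked, since no molecular identifiers mark independent molecules and the scaling and duplicate handling are not given. Conditions were not tested against each other, having 1 library each. Coordinates are as deposited; since length is end minus start, starts may be 0-based. The deposited distances, measured from region centres, matched a start in GENCODE M21 within 90.5 bp in 11 of 11 pairs; exons are from its basic protein-coding transcripts. Named genes were the members, genes sharing or flanking their regions, list members with a listed region and the 3 next tightest runs; results for some of these are not reported here. Members and lists were chosen with earlier results of these data known; Zbtb16, the cluster on chromosome 19, Csf3r and the genes neighbouring the locus on either side (Plxdc1, Nmt1) were named in addition. Alternatives were another summary of the pileup, other scalings, pseudocounts, a tag minimum and choice by position. Python 3.11.15, numpy 2.4.6, pandas 2.3.3, SciPy 1.17.1 and matplotlib 3.10.9 were used.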

Additional observations from a re-analysis of the deposited data

How the results depend on the processing

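The scaling between the libraries bears most on these values, and the sources used here do not give it. With imiquimod values multiplied by 1.40 so that the average pileups of all listed regions sum alike, 0 of the 5 regions stayed 2-fold lower, the summed log2 ratio was -0.63 and the median -0.60. With imiquimod values raised by 15%, 1 region stayed 2-fold lower. A pseudocount of 10 left 0 regions, a summed log2 ratio of -0.66 and a median of -0.68, since it shrinks every ratio at these pileups. A minimum of 75 tags left 1 region, that in Rara. The highest window and a pseudocount of 1 left 4 each, and choice by position gave the same 5 regions. Of 30 log2 values of single regions under 6 of the alternatives, 29 stayed within their counting interval and 0 changed sign, though of these only the highest window could have turned a sign, and choice by position repeats the same values. No paired analysis was possible because each condition has 1 library, and no replicate could be left out for the same reason. The tag numbers, 24.2 to 50.2 per region in imiquimod and 51.1 to 110.8 in Vaseline epidermis, are too low to rank the 5 regions by their difference.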

Other observations

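Chromosome 11 as a whole leaned to lower 5-hmC in imiquimod epidermis among the listed regions. It held 28 lower and 2 higher regions (93.3% lower), the most lower regions of any chromosome, against 271 lower and 93 higher over the table. The locus supplies 5 of the 28. Chromosome 19 held 12 lower and 1 higher region, whereas chromosome 13 held 6 of each, chromosome 18 held 3 lower and 7 higher, and the X chromosome 0 lower and 2 higher. These counts are of regions that passed the authors' limits and were not tested against the number of genes or of merged regions per chromosome.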
